A study of Homo sapiens with 6 samples.

Results

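The genes described here encode the cytosolic and mitochondrial heat shock chaperones, with the heat shock transcription factors and the main cochaperones: 42 genes listed by name. The rule used no measured value, but the list was drawn up with earlier results of these data known. A gene was taken as measured where the array's annotation gave at least 1 probe set to it alone, and its brightest such probe set by the mean of the 6 arrays stood for it, which left 37 of the 42 among the 18417 genes tested. HSPA1A, HSPA1B and HSPB2 were covered by probe sets that carry several symbols, and HSF2 and AHSA1 had none in the annotation used, so these 5 are not analysed here. HSPA1A and HSPA1B encode the classic stress-inducible HSP70, so the level of this form is not known here, and the values below are of its relatives and partners.

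The arrays compared 1 MDA-MB231 clone carrying a stable knockdown of G9a, a histone methyltransferase (G9a knockdown, 3 arrays), with the parental MDA-MB231 cells (control, treatment labelled none, 3 arrays). MDA-MB231 is an established line from a metastatic breast tumour, and both groups grew in DMEM/F12 with serum and were taken in log-phase growth, with no heat or other stress treatment in the labels. The knockdown group is a single clone set against a parental population, so an effect of the knockdown and a property of the clone cannot be told apart; no control clone is described. The labels call the knockdown cells less metastatic than the control cells. Nothing in the labels shows that replicates were separate cultures, and p-values therefore measure the spread between these arrays, which may be technical.

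Heat shock proteins keep other proteins folded. HSP70 proteins bind exposed hydrophobic stretches in an ATP-driven cycle that J-domain proteins (the HSP40 family) start and that nucleotide exchange factors, among them the HSP110 proteins and the BAG proteins, reset; HSP90 finishes the folding of kinases and hormone receptors, and small heat shock proteins hold unfolded clients without using ATP. HSP60 with its lid HSP10, mitochondrial HSP70 and TRAP1 do the corresponding work inside mitochondria. Many of the genes are driven by HSF1, which binds repeats of a short element in their promoters when unfolded protein accumulates, and tumour cells commonly run this programme at a raised level.

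The chaperone genes as a whole differed little between the clone and the parental cells. HSPA4, an HSP110-type exchange factor for HSP70, fell to 0.787 of the control level, and HSPB8, a small heat shock protein that works with BAG3, rose 1.28-fold in the knockdown. The arrays read RNA of whole cultures, in which fewer cells with a transcript and less of it per cell cannot be told apart. These were the only members past the threshold, an adjusted p of 0.05 from limma with Benjamini-Hochberg adjustment over all 18417 genes. Thus 1 of 37 members fell, where 1.78% of all genes tested did, and 1 rose, where 1.28% of all genes did; both counts are near what the whole table gives. An unadjusted p under 0.05 was found for 8 of the 37 members (21.6%), against 19.4% of all genes. Differences throughout are G9a knockdown minus control in log2 units. Over the 37 members they ran from -0.35 to 0.35 with a median of -0.03, against a median of 0.03 over all genes. Negative values were found for 20 members (54.1%), against 40.4% of all genes. Of the members, 31 lay above the lowest 33.3% of mean expression. The share of negative values among genes of like signal was not computed, here or for the lists below. The 95% interval of the difference, not adjusted for the number of genes, lay wholly within 0.3 log2 of 0 for 24 of the 37 members, and within 0.5 log2 for 35.

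**Figure D1:**
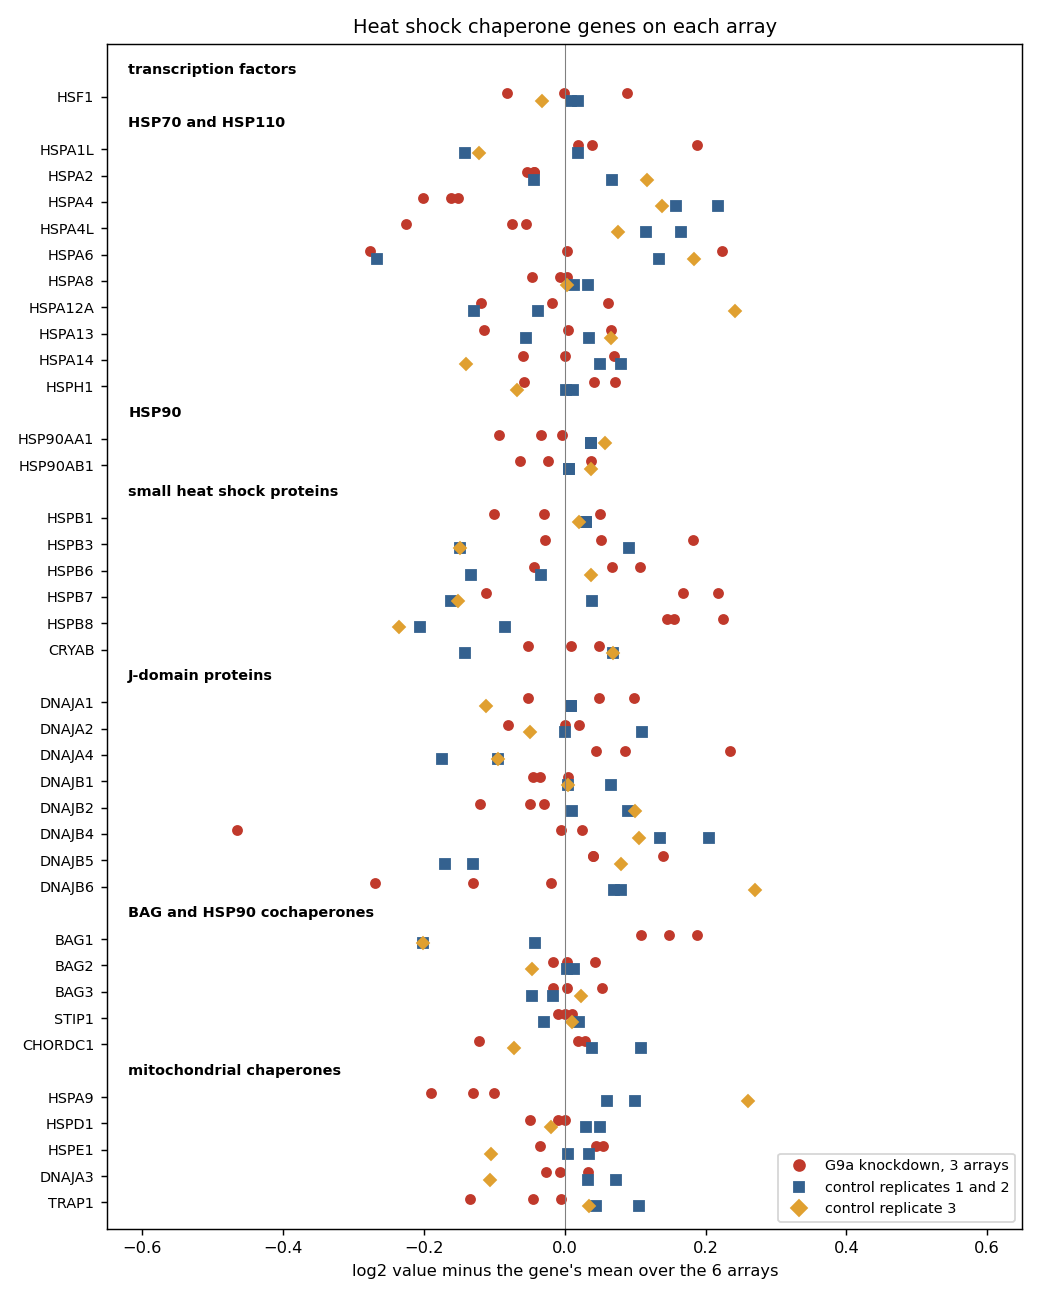
Each row is a chaperone gene and each point an array, placed at its log2 value minus the gene's mean over the 6 arrays; circles are the 3 G9a knockdown arrays, squares control replicates 1 and 2, and diamonds control replicate 3. For HSPA4 and HSPB8 the groups lie apart, and for HSF1, STIP1, BAG2 and BAG3 all points lie within about 0.1 of the mean.

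For 11 members (29.7%) the 3 knockdown arrays were all lower than the 3 control arrays, and for 3 members (8.11%) all higher; over all genes these shares were 12.7% and 14.3%. The lower ones were HSPA2, HSPA4, HSPA4L, HSPA8, HSP90AA1, HSPA9, DNAJB1, DNAJB2, DNAJB4, DNAJB6 and TRAP1, and the higher ones HSPB8, DNAJA4 and BAG1. Several of these gaps were small. HSPA8, the constitutive HSP70, differed by only -0.04 without overlap.

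**Figure D2:**
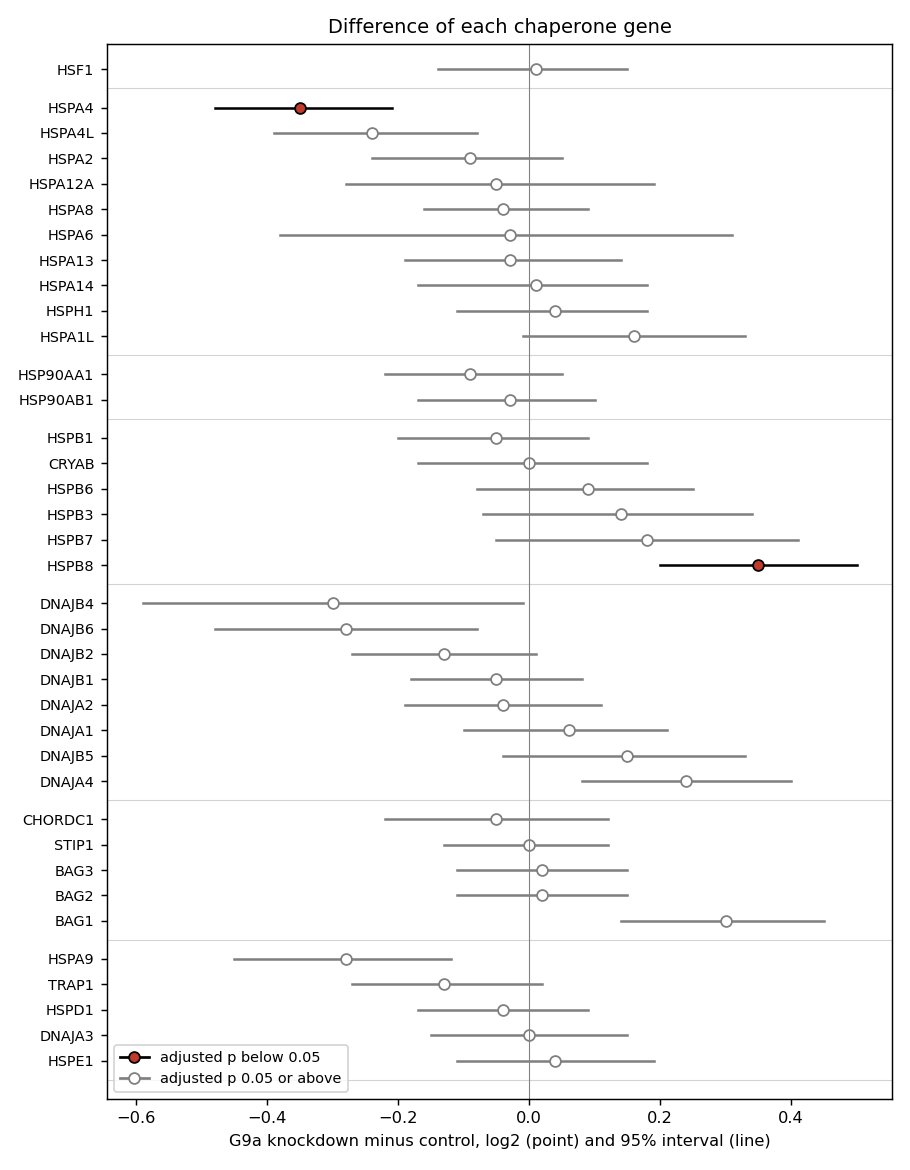
Points give the difference between G9a knockdown and control for each chaperone gene in log2 units and lines its 95% interval from limma, grouped by role from HSF1 at the top to the mitochondrial chaperones at the bottom. The filled points, HSPA4 at -0.35 and HSPB8 at 0.35, are the members past the threshold, and most other intervals cross 0.

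HSF1 binds its target promoters through alternating units of GAA and TTC spaced by a pair of bases. A window from 250 bases before to 50 bases after the annotated start was held in the RefSeq promoter table (GRCh38.p14) for 38 of the 42 genes and 34 of the 37 measured ones. A run of 3 units, GAANNTTCNNGAA or its reverse complement TTCNNGAANNTTC, was searched on both strands. It was present for 8 of the 34 measured members (23.5%) and for 0.608% of the 27305 genes in the table, and 0.490% of all 35116 windows held it. The shorter 2-unit runs GAANNTTC and TTCNNGAA, of which each 3-unit run contains both, were present for 20 of the 34 (58.8%) and for 16.2% of all genes, or 13.5% of all windows. These matches describe letters, not bound sites. The first 3-unit stretch of each of the 8 genes is shown because these measured members held a 3-unit run. Capitals mark the alternating units with their spacers, and the sequences run 5′ to 3′ on the strand of the gene.
HSPA6, chr1:161524458-161524486, + strand: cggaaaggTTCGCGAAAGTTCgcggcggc
HSPA8, chr11:123062346-123062374, - strand: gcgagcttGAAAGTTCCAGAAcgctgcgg
HSP90AA1, chr14:102087112-102087140, - strand: gagggttcTTCCGGAAGGTTCgggaggct
HSP90AB1, chr6:44247770-44247798, + strand: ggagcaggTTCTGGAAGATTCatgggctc
DNAJA1, chr9:33025268-33025296, + strand: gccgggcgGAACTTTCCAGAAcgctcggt
DNAJB6, chr7:157336865-157336893, + strand: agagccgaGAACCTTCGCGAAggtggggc
CHORDC1, chr11:90223079-90223117, - strand: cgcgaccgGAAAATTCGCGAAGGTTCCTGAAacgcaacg
HSPD1, chr2:197500060-197500090, - strand: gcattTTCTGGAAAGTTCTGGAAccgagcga

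CHORDC1 and HSPD1 held longer alternating runs than the other 6. Counted from the gene start, with -1 as the base before it, the CHORDC1 run lay at -60 to -38 and the HSPD1 run at -245 to -228. In DNAJA1 the match lay 4 to 16 bases into the transcribed region. None of the 8 genes passed the test (limma), and none had an unadjusted p under 0.05 except DNAJB6 (0.0120). Their differences ran from -0.28 (DNAJB6) to 0.06 (DNAJA1) with a median of -0.04, and 7 of the 8 were negative, against 40.4% of all genes. The sign of HSPA6, HSP90AB1 and CHORDC1 turned under some alternative settings, and a lean of these 8 genes was not tested. The median of the 26 other measured members with a window was 0. These 26 include inducible genes such as HSPH1 and DNAJB1, so the split is by letters and not by control through HSF1. HSPA6, the strictly inducible HSP70B′, read 7.48, 6.98 and 7.26 on the knockdown arrays, against 6.99, 7.39 and 7.44 on the control arrays. Its groups overlapped throughout, and its difference of -0.03 had a 95% interval from -0.38 to 0.31.

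HSF1 itself, the main transcription factor of the heat shock response, read 11.09, 11 and 10.92 in the knockdown, against 11.02, 11.01 and 10.97 in control. The difference was 0.01 ± 0.06 (SE; limma, adjusted p = 0.972), with a 95% interval from -0.14 to 0.15. The knockdown arrays spread to both sides of the control arrays, which lay within 0.05 of each other, and the sign turned to -0.01 without control replicate 3. The transcript level says nothing about the trimeric, DNA-binding state of the HSF1 protein, which arrays do not measure.

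HSPA4 (Apg-2) was the member of the HSP70 and HSP110 group that passed. It read 11.30, 11.34 and 11.35 on the knockdown arrays, against 11.72, 11.66 and 11.64 on the control arrays, so that the gap between the groups was wider than the range within either. Its mean was 11.33 ± 0.03 in the knockdown and 11.68 ± 0.04 in control (SD, n = 3 each), a difference of -0.35 ± 0.06 (SE; limma, adjusted p = 0.0219). The 95% interval ran from -0.48 to -0.21. The size was steady, from -0.36 to -0.32 with each array left out in turn, but the call was not: of these 6 fits it passed only without control replicate 3 (adjusted p = 0.0300), and in the others the adjusted p ran up to 0.101.

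The nearest relative of HSPA4, HSPA4L (Apg-1), gave 11.37, 11.54 and 11.52 in the knockdown, against 11.76, 11.71 and 11.67 in control. All knockdown values were the lower, with knockdown replicate 1 the farthest away. The difference was -0.24 ± 0.07 (SE; limma, adjusted p = 0.109), which missed the threshold. It passed in 2 of 15 alternatives, with adjusted p from 0.0197 to 0.264. HSPH1 (HSP105), the stress-inducible HSP110 and the third exchange factor of this kind, read 12.37, 12.50 and 12.47 in the knockdown, against 12.44, 12.43 and 12.36 in control. Its groups overlapped, with a difference of 0.04 and a 95% interval from -0.11 to 0.18. The 3 HSP110-type genes therefore had values of -0.35, -0.24 and 0.04, and differences among them were not tested.

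The 250 bases before the start of HSPA4, the member that fell, are shown beside those of HSPB8, the member that rose, because neither held a 3-unit run. The HSPA4 window had no 2-unit run. HSPB8 had 2 in its window; the one inside the bases shown is in capitals, and the other lies past the gene start.
HSPA4, chr5:133051763-133052012, + strand: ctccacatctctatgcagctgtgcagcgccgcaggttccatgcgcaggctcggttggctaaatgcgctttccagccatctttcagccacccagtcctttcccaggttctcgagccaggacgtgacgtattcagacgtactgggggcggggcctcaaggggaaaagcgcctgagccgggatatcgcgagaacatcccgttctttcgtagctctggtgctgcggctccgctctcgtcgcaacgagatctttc
HSPB8, chr12:119178681-119178930, + strand: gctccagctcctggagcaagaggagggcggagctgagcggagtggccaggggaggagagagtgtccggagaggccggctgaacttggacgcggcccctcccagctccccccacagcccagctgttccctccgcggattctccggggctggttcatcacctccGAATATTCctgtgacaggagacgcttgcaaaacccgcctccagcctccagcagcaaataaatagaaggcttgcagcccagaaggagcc

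Among the canonical HSP70 genes, HSPA8, encoding HSC70, read 14.16, 14.21 and 14.20 in the knockdown, against 14.24, 14.22 and 14.21 in control. The groups touched without overlapping, and the difference of -0.04 had a 95% interval from -0.16 to 0.09 (limma, adjusted p = 0.760). HSPA1L, which is expressed mainly in testis, gave 0.16 (limma, adjusted p = 0.290), and HSPA2, a further testis-enriched HSP70, gave -0.09. HSPA12A, a distant relative, gave -0.05, HSPA13 (STCH) gave -0.03, and HSPA14, an HSP70 that works at the ribosome, gave 0.01. HSPA12A turned positive, at 0.06, without control replicate 3, which read 9.79 against 9.51 and 9.42 on the other control arrays. In all, 1 of the 10 measured HSP70 and HSP110 genes fell, where 1.78% of all genes did, none rose and 9 did not pass. The median was -0.03. HSP70 genes resemble each other closely in coding sequence, and shared hybridisation between HSPA1L, HSPA6, HSPA8 and the genes not analysed here was not tested.

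Neither cytosolic HSP90 gene passed (limma), and neither had an unadjusted p under 0.05. HSP90AA1, the inducible alpha form, read 13.40, 13.46 and 13.49 on the knockdown arrays, against 13.53, 13.53 and 13.55 on the control arrays. All knockdown values were lower, by a difference of -0.09 with a 95% interval from -0.22 to 0.05 (limma, adjusted p = 0.462). HSP90AB1, the constitutive beta form, read 13.54, 13.58 and 13.64, against 13.61, 13.61 and 13.64 in control, with overlapping groups and a difference of -0.03 (interval -0.17 to 0.10).

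HSPB8 was the small heat shock protein gene that rose. The knockdown arrays read 10.54, 10.62 and 10.55, against 10.19, 10.31 and 10.16 on the control arrays, with a clear gap between the groups. The mean was 10.57 ± 0.04 in the knockdown and 10.22 ± 0.08 in control (SD, n = 3 each), a difference of 0.35 ± 0.06 (SE; limma, adjusted p = 0.0313). With each array left out in turn it stayed between 0.32 and 0.39, and no such fit passed, the adjusted p running from 0.0549 without control replicate 3 to 0.122. BAG3, the partner of HSPB8 in selective autophagy of misfolded protein, had overlapping groups: it read 11.26, 11.33 and 11.28 in the knockdown, against 11.23, 11.26 and 11.30 in control, a difference of 0.02 (95% interval from -0.11 to 0.15).

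The other small heat shock protein genes did not pass. HSPB1 (HSP27), a chaperone often abundant in breast tumours, read 13.44, 13.36 and 13.29 in the knockdown, against 13.42, 13.42 and 13.41 in control. The knockdown values spread around the tightly grouped control values, and the difference was -0.05 (interval -0.20 to 0.09). HSPB3 and HSPB7, known from muscle and heart, gave 0.14 and 0.18, HSPB6 (HSP20) gave 0.09, and CRYAB, which encodes alpha-B crystallin, gave 0.0036. These last 4 lay in the lowest 33.3% of mean expression, as did HSPA6 and DNAJA4, and with no detection calls at hand, a real level cannot be separated from background for them. Of 6 small heat shock protein genes 1 rose, where 1.28% of all genes did, and none fell. Positive values were found for 5, against 10976 of all 18417 genes, and 4 of these 5 were the genes of low expression just named. The median was 0.11, against 0.03 over all genes.

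**Figure D3:**
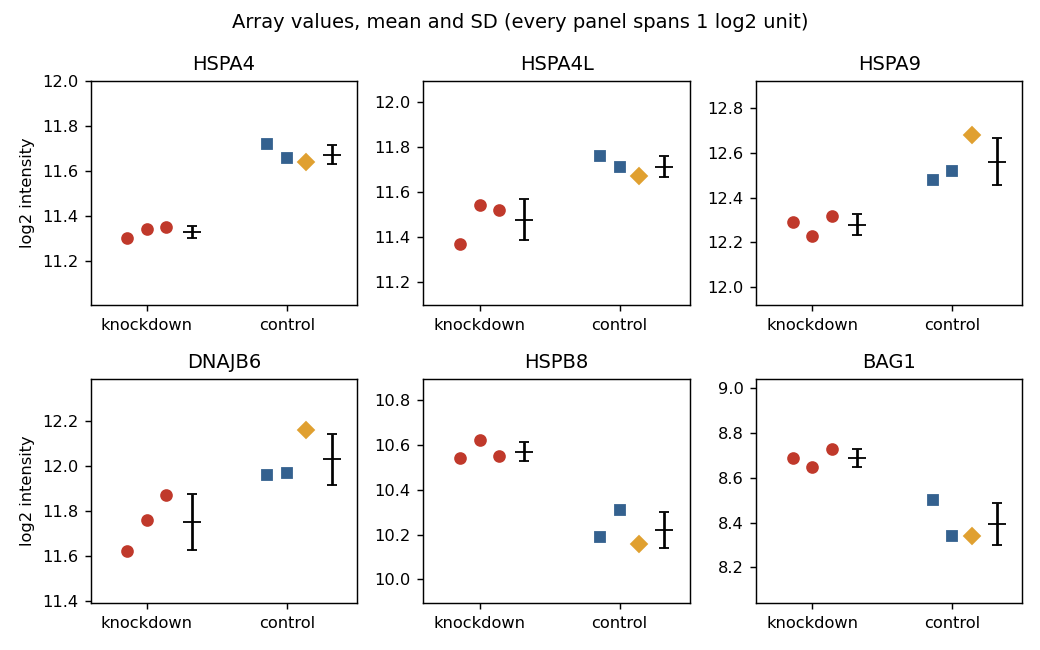
Each panel shows 1 gene, with log2 intensity on the vertical axis over a span of 1 log2 unit; circles are G9a knockdown arrays, squares control replicates 1 and 2, the diamond control replicate 3, and the bar beside each group is its mean with SD. HSPA4 and HSPB8 passed the test, and HSPA4L, HSPA9, DNAJB6 and BAG1 did not, although the groups lie apart in all 6 panels.

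None of the 8 measured J-domain genes passed (limma), while 3 had an unadjusted p under 0.05: DNAJA4, DNAJB4 and DNAJB6, in a table where 19.4% of all genes had one. DNAJB6, whose product suppresses aggregation of polyglutamine proteins, read 11.62, 11.76 and 11.87 in the knockdown, against 11.96, 11.97 and 12.16 in control. All knockdown values were lower, but they were spread, and the difference of -0.28 ± 0.09 (SE) had an adjusted p of 0.129 (limma). Its other probe set was tighter, with 11.26, 11.23 and 11.27 in the knockdown, against 11.48, 11.45 and 11.49 in control. That probe set differed by -0.22 and also did not pass when every probe set was tested (adjusted p = 0.163).

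DNAJB4, a heat-inducible relative of DNAJB1, read 9.71, 10.20 and 10.17 in the knockdown, against 10.31, 10.38 and 10.28 in control. Knockdown replicate 1 stood far below the other knockdown arrays, and without it the difference of -0.30 became -0.14. DNAJA4 read 6.95, 6.76 and 6.80, against 6.54, 6.62 and 6.62 in control, a difference of 0.24 (limma, adjusted p = 0.107) among values low on the array. DNAJB5 gave 0.15, with control replicate 3 at 10.59 inside the knockdown range of 10.55 to 10.65 and the other control arrays at 10.38 and 10.34.

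DNAJB1 (HSP40), the main inducible partner of HSP70, read 11.58, 11.62 and 11.57 in the knockdown, against 11.62, 11.68 and 11.62 in control. The difference of -0.05 had a 95% interval from -0.18 to 0.08. DNAJA1 and DNAJA2, constitutive cytosolic partners of HSC70, gave 0.06 and -0.04, and DNAJB2, a form enriched in neurons that hands clients to the proteasome, gave -0.13 (limma, adjusted p = 0.284). Over the 8 genes 5 values (62.5%) were negative, against 40.4% of all genes, and the median was -0.05.

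Of the cochaperones, BAG1, an exchange factor that also links HSP70 to the proteasome and binds hormone receptors, came nearest to the threshold. It read 8.69, 8.65 and 8.73 in the knockdown, against 8.50, 8.34 and 8.34 in control. All knockdown arrays were higher, and the difference was 0.30 ± 0.07 (SE; limma, adjusted p = 0.0601). Across 15 alternative settings the adjusted p ran from 0.00602 to 0.205 and passed in 3. BAG2, an inhibitor of the ubiquitin ligase CHIP, gave 0.02. STIP1 (HOP), the adaptor that joins HSP70 to HSP90, was the steadiest of the group, with 11.96, 11.98 and 11.97 in the knockdown and 11.94, 11.99 and 11.98 in control. CHORDC1, a partner of HSP90 whose promoter held the longest run of heat shock units shown here, gave -0.05. None of these 5 genes passed (limma), and BAG1 alone had an unadjusted p under 0.05.

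Mitochondrial chaperone genes did not pass either (limma, 0 of 5, with HSPA9 alone under an unadjusted p of 0.05). HSPA9 (mortalin), the mitochondrial HSP70 that pulls imported proteins through the inner membrane, read 12.29, 12.23 and 12.32 in the knockdown, against 12.48, 12.52 and 12.68 in control. The groups did not overlap, and control replicate 3 was the highest array; the difference was -0.28 ± 0.07 (SE; limma, adjusted p = 0.0787), and -0.22 without that array. Its adjusted p passed under 3 of 15 alternatives, between 0.0154 and 0.195 in all.

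HSPD1 (HSP60) and HSPE1 (HSP10), which form the mitochondrial folding chamber and share a bidirectional promoter, gave -0.04 and 0.04. HSPD1 read 12.77, 12.81 and 12.82 in the knockdown, against 12.87, 12.85 and 12.80 in control, and HSPE1 read 10.06, 10.07 and 9.98, against 10.05, 10.02 and 9.91 in control. Both pairs of groups overlapped. DNAJA3 (TID1), the mitochondrial J-domain protein, gave 0.0013 with a 95% interval from -0.15 to 0.15. TRAP1, the mitochondrial HSP90, read 11.76, 11.72 and 11.63, against 11.87, 11.81 and 11.80 in control, a difference of -0.13 (limma, adjusted p = 0.316).

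Control replicate 3 showed no common direction on these chaperones, although it had the lowest limma array weight of the 6 arrays (0.273). It was the highest of the 6 arrays for 8 of 37 members (21.6%), against 19.8% of all genes, and it lay above the mean of the other control arrays for 15 (40.5%), against 52.1% of all genes. The median of its distance from the other control arrays was -0.04 over the members and 0.01 over all genes. Single members departed: HSPA12A was 0.32 higher there, HSPA6 0.25, DNAJB5 0.22, DNAJB6 0.19 and HSPA9 0.18, while HSPA14 was -0.20 and DNAJA3 -0.16. The endoplasmic reticulum chaperones behaved otherwise on that array, with 12 of 13 above the mean of the other control arrays. The median distance over the 13 was 0.07, with DNAJB9 at 0.71 and HSPA5 (BiP) at 0.37. Without control replicate 3, 1 of the 37 members fell (HSPA4; 1.70% of all genes fell in that fit) and none rose by limma (1.21% of all genes rose), HSPB8 missing the threshold. The median difference over the members was then -0.01. In that fit the sign turned for HSF1, HSPA6, HSPA12A, HSPA13, HSPA14, STIP1, HSPE1 and DNAJA3, none of them called.

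**Figure D4:**
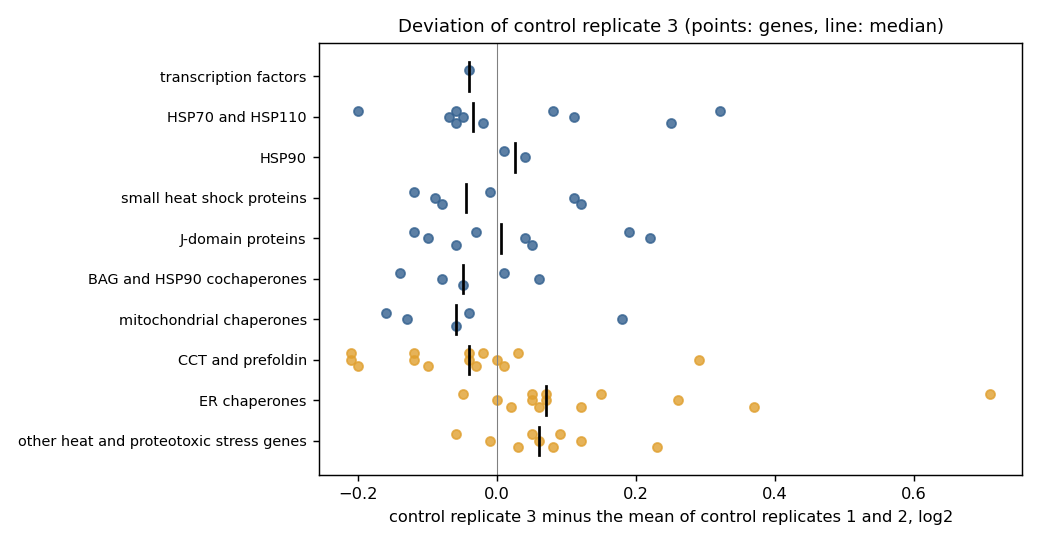
Each point is a gene, placed at control replicate 3 minus the mean of control replicates 1 and 2 in log2 units, with a line at each list's median; the upper 7 rows are the chaperone genes by role and the lower 3 rows other lists. The chaperone rows scatter around 0, while the endoplasmic reticulum chaperones lie mostly to the right, up to 0.71 for DNAJB9.

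HSPA4 has neighbours on its chromosome whose values were mostly lower in the clone. Each gene was set beside up to 38 of its neighbours in the RefSeq gene order, 19 on either side, and the median difference of those neighbours was taken. It was -0.13 for HSPA4 and -0.16 for HSPA9, which lie on chromosome 5, -0.13 for HSPA4L on chromosome 4 and -0.10 for DNAJB4 on chromosome 1. Over all genes the middle value of this measure was 0.03, and 1.67% of genes had neighbours as low as those of HSPA4, 0.903% as low as those of HSPA9, 1.60% as low as those of HSPA4L and 3.93% as low as those of DNAJB4. Neighbours of DNAJB6 and HSPB8 lay at 0.03 and 0.04, and those of BAG1 at 0.09. Of the other members lower without overlap, HSPA2 and HSP90AA1 had neighbours at -0.05 and -0.06. Those of HSPA8, DNAJB1, DNAJB2 and TRAP1 lay at 0.04, 0.09, 0.08 and 0.03. PFDN1, a prefoldin gene on chromosome 5 that fell as described next, had neighbours at -0.17. GRPEL2, also on chromosome 5, differed by -0.28 without passing and had neighbours at 0.02. The part of the neighbourhood in these values was not tested.

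**Figure D5:**
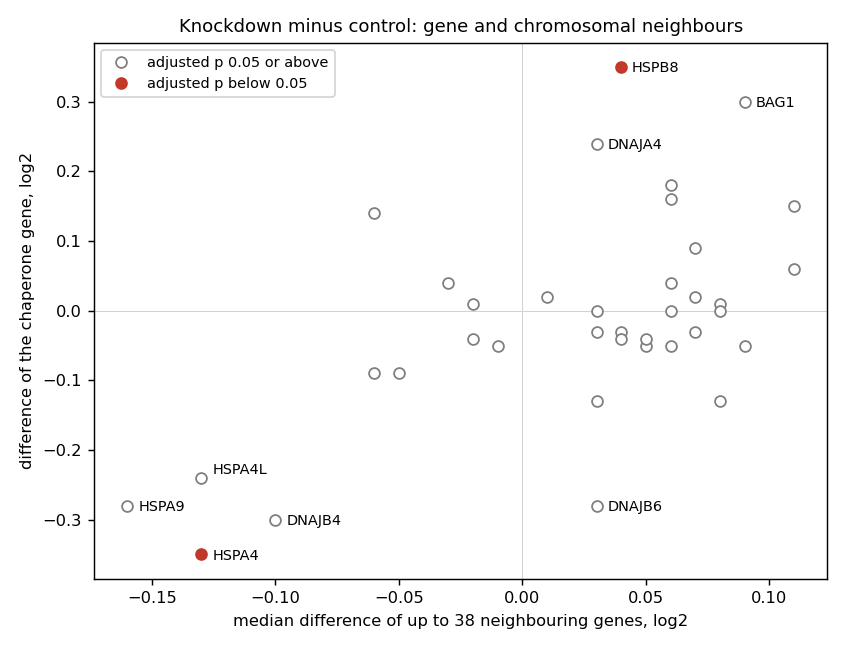
Each point is a chaperone gene, with the median difference of up to 38 neighbouring genes on the horizontal axis and the gene's own difference on the vertical axis, both G9a knockdown minus control in log2 units. HSPA4, HSPA4L, HSPA9 and DNAJB4 lie at the lower left, whereas DNAJB6 is as low as HSPA9 with neighbours at 0.03.

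Most genes that work beside these chaperones did not pass either. Of 66 listed, 62 were measured. Of these, 1 rose, where 1.28% of all genes did, and 1 fell, where 1.78% of all genes did. Both counts are near those shares. The other 60 did not pass (limma), and the median over the 62 was -0.03. Negative values were found for 43 (69.4%), against 40.4% of all genes. CLU (clusterin), a secreted chaperone that HSF1 can drive, rose by 0.65 ± 0.06 (SE; limma, adjusted p = 0.00350). It read 10.77, 10.76 and 10.69 in the knockdown, against 10.13, 10.08 and 10.05 in control, so its rise was larger than that of any member. PFDN1, a subunit of the prefoldin that delivers actin and tubulin to the chaperonin CCT, fell by 0.27 (limma, adjusted p = 0.0433), with 11.64, 11.63 and 11.65 in the knockdown, against 11.95, 11.88 and 11.91 in control; without control replicate 3 its adjusted p was 0.0571.

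Over the 62 genes, 18 (29.0%) had an unadjusted p under 0.05, against 19.4% of all genes tested, the share beside which the counts of each list stand. Within the other lists, 12 of 14 CCT and prefoldin genes (85.7%) had negative values, against 40.4% of all genes. PFDN1 was the one that passed, where 1.78% of all genes fell, and 3 of the 14 (21.4%) had an unadjusted p under 0.05. None of 17 further cochaperones passed (4 with an unadjusted p under 0.05), and DNAJC7 had the largest value at -0.24. None of 13 endoplasmic reticulum chaperones passed (4 with an unadjusted p under 0.05), DNAJB9 having the largest value at -0.51, or -0.28 without control replicate 3. None of 9 mitochondrial quality control genes passed (3 with an unadjusted p under 0.05); GRPEL2, an exchange factor of mortalin, had the largest value at -0.28. Among the heat and proteotoxic stress genes CLU rose, where 1.28% of all genes did. The other 8 measured did not pass (3 with an unadjusted p under 0.05).

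The targeted gene EHMT2, which encodes G9a, read 9.66, 9.59 and 9.51 in the knockdown, against 10.21, 10.27 and 9.93 in control, a difference of -0.55 ± 0.10 (SE; limma, adjusted p = 0.0259), and it passed in 9 of 15 alternatives. Of markers of the line, VIM and CD44 ranked at the 99.7 and 99.8 percentiles of all genes, and ESR1, PGR and CDH1 at 21.5, 7.4 and 31.0. CDH1, encoding E-cadherin, rose by 0.45 (limma, adjusted p = 0.0177). It lay in the lowest 33.3% of mean expression, where a real level cannot be separated from background without detection calls. Of markers of other cell types, PTPRC lay at the 4.4 percentile, CD14 at 36.1 and PECAM1 at 45.6; their differences were 0.21, 0.03 and 0.42, none past the threshold, although PECAM1 passed without control replicate 3 (0.53; limma, adjusted p = 0.0176), and their part in the chaperone values was not tested. Correlations between arrays across probe sets ran from 0.992 to 0.997.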

How the data were processed

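RNA of the 6 arrays was labelled with biotin and hybridised, per the labels. The deposited log2 values hold 1 number per probe set and array; the sources used here give no software, scaling or log base, and log2 was taken from the range of 2.13 to 14.8, as was scaling between arrays from medians of 7.79 to 7.86. Of 33297 probe sets, 19460 carried 1 symbol, 1754 several and 12083 were not listed in the platform annotation. Symbols were updated by Entrez number (19429 found). limma 3.58.1 in R 4.3.3 (lmFit, eBayes, no covariate, 4 residual degrees of freedom, two-sided) was fitted to 18417 genes, with the threshold at an adjusted p of 0.05. The steps were run on simulated data with planted differences larger than that of any member, so recovery of differences of the members' size was not tested. Groups and replicate numbers came from the titles. Of the members, 34 had 1 probe set and 3 had several; the 3 of HSPA1L held the same values, as did the 2 of EHMT2. Promoter sequences are from RefSeq (GRCh38.p14). The members and lists were chosen with earlier results of these data known. The genes named are every measured member, EHMT2, the line's markers and, of the other lists, those past the threshold or else the largest; HSPA5 was added after its values were seen. Alternatives were quantile normalization, median centring, a filter on low genes, a variance trend, array weights, a replicate block, other probe set rules and leaving out arrays. The number of arrays limits the precision.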

Additional observations from a re-analysis of the deposited data

How the results depend on the processing

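The size of the differences of HSPA4 and HSPB8 was steadier than their calls (limma throughout). The count of members lower, 1 as reported, was 2 with the lowest 33.3% of genes left out (HSPA4, HSPA9), 3 with a variance trend or with array weights (HSPA4, HSPA4L, HSPA9), and 0 with every probe set tested. The count of members higher, 1 as reported, was 2 with the low genes left out or with a trend (HSPB8, BAG1), 4 with array weights (HSPB8, BAG1, DNAJA4, DNAJB5) and 0 with every probe set tested. Dropping a pair of arrays, knockdown replicate 1 and control replicate 3, a choice made after seeing the data, gave 0 lower and 0 higher. With each array left out in turn, 0 to 1 were lower and 0 higher; the 1 needs control replicate 3 to be the array left out. Quantile normalization, median centring and the mean of a gene's probe sets left both counts at 1. The median over the members, -0.0259, was -0.0368 without the low genes, -0.0159 with array weights and -0.0189 to -0.00822 with arrays left out in turn.

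With the replicate number as a replicate block, 0 members were lower and 0 higher, with adjusted p of 0.0756 for HSPA4 and 0.0672 for HSPB8. Deviations from the group means of arrays with the same number correlated at -0.246, 0.122 and 0.0877, so the numbers were not taken to pair the arrays.

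Of the 37 members, 24 kept their sign under all 15 alternatives and 13, none of them called, did not; the cause was not tested. Median centring gave -0.000243 for HSF1, -1.33e-05 for HSPA14, -0.00225 for CRYAB and -0.00458 for DNAJA3. Quantile normalization gave -0.0381 for CRYAB and 0.0141 for STIP1. Array weights gave -0.0440 for HSF1, 0.104 for HSPA12A, -0.0650 for HSPA14, 0.00299 for HSP90AB1, -0.00265 for BAG2, -0.0132 for HSPE1 and -0.0421 for DNAJA3. Without that pair of arrays, HSF1 was -0.0502, HSPA12A 0.0580, HSPA13 0.0505, HSPA14 -0.0601, HSP90AB1 0.00115, STIP1 0.00500, HSPE1 -0.0173 and DNAJA3 -0.0680. With single arrays left out, values ran from -0.0362 to 0.0470 for HSF1, -0.174 to 0.0965 for HSPA6, -0.122 to 0.0617 for HSPA12A, -0.0665 to 0.0240 for HSPA13, -0.0620 to 0.0478 for HSPA14, -0.0656 to 0.0390 for CRYAB, -0.0747 to 0.00227 for DNAJA2, -0.0172 to 0.00898 for STIP1, -0.0953 to 0.000567 for CHORDC1, -0.00511 to 0.0683 for HSPE1 and -0.0508 to 0.0351 for DNAJA3. With the low genes left out, HSPA6, HSPB3, HSPB6, HSPB7, CRYAB and DNAJA4 have no value. No detection call was used, so how far low signal limits these 6 is not known.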
